A study of Mus musculus with 48 samples.

Results

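The genes described here are 10 members of 2 related families of neuronal adhesion molecules, the contactins Cntn1, Cntn3, Cntn4, Cntn5 and Cntn6 and the contactin-associated proteins, or Caspr proteins, encoded by Cntnap2, Cntnap4, Cntnap5a, Cntnap5b and Cntnap5c. They were chosen by name, out of 37620 genes in the count table, by matching gene symbols to the Ensembl identifiers of its rows. All 10 were found. They were followed across 16 populations of mouse hippocampal neurons with 3 RNA sequencing libraries each, 48 libraries in all. Fluorescent neurons were picked by hand from microdissected slices, and RNA was amplified before sequencing. CA1 pyramidal cells, the output neurons of the hippocampus, made up 10 of the populations. These were taken at 3 levels of the long axis (dorsal, intermediate, ventral), at the proximal and distal ends of the transverse axis, from the superficial and deep parts of the cell layer, and by projection target (postsubiculum, amygdala or nucleus accumbens). Pyramidal cells of CA3 and granule cells of the dentate gyrus (DG) were each taken at the dorsal and ventral pole, and 2 further populations were parvalbumin (PV) and somatostatin (SST) interneurons. Strain, age, sex, treatment and the alleles or tracers behind the fluorescence were not given in the sources used here. The series calls the 3 libraries of a population biological replicates without saying whether they stem from different mice, and the p-values measure the spread between these libraries.

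Contactins are immunoglobulin-like adhesion proteins held on the outer membrane by a lipid anchor, and Caspr proteins are single-pass membrane proteins related to the neurexins. Members of the 2 families bind one another, as in the pairing of contactin-1 with Caspr at the paranodes of myelinated axons and of contactin-2 with Caspr2 beside them, where Caspr2 helps to cluster Shaker-type potassium channels. Contactins also act outside the node in axon growth, synapse formation and the choice of partners, and Cntnap4 is known for its part in inhibitory transmission.

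A library held between 5.12 and 31.98 M reads that fell in genes. Levels are given as CPM, read counts relative to library size as scaled by the TMM method. They carry the mean ± SD over 3 libraries and compare populations within a gene. Genes are compared with one another only by the authors' FPKM, which is per transcript length. Libraries are numbered as in the count table. Marker genes followed the labels for most populations: the summed level of 4 granule cell markers was 1474 to 2048 CPM in DG libraries and at most 25.8 CPM elsewhere, and that of 4 CA1 markers was 432 to 2204 CPM in CA1 pyramidal libraries and at most 143 CPM elsewhere. Pou3f1, 1 of these 4, had no read in any library. The list for CA3 (Iyd, Coch, Socs2 and Nnat) did not separate CA3, since it summed to 201 to 432 CPM there and to 342 to 1222 CPM in amygdala- and accumbens-projecting CA1 cells. Summed GABAergic markers were 5517 to 7163 CPM in both interneuron populations and reached 1056 CPM in deep CA1, 269 CPM in the first proximal library and 197 CPM in the third superficial library. Oligodendrocyte markers reached 722 CPM in 1 SST library. In bulk samples fewer cells of a type and less RNA per cell cannot be told apart.

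The members are long genes. In the RefSeq and GENCODE annotations of mouse build GRCm38, whose coordinates are not those of the files' build, they span from 291 kb for Cntn1 on chromosome 15 and 313 kb for Cntnap4 on chromosome 8 to 1022 kb for Cntn4, 1244 kb for Cntn5 and 2245 kb for Cntnap2. Cntn3, Cntn4, Cntn6 and Cntnap2 lie on chromosome 6, Cntnap5a and Cntnap5b on chromosome 1, Cntn5 on chromosome 9 and Cntnap5c on chromosome 17. Exons of Cntn5 overlap those of Gm32710 and exons of Cntnap4 those of Gm45904, both on the opposite strand. The sources used here do not give the strand setting of the counting, so reads of these pairs may not be told apart. Start regions of 7 members were held by the RefSeq table of build GRCm38.p6. Of these, 3 are printed as the 250 bases before an annotated start, 5′ to 3′ on the gene's strand, because they belong to the member with the flattest profile (Cntn1), the member called in the most comparisons (Cntnap2) and the member with the widest range among those with more than 3 reads in their lowest population (Cntnap5b). Capitals mark the GC box GGGCGG on either strand, which 32.7% of 32851 such windows hold.
Cntn1, chr15:92050915-92051164, plus strand: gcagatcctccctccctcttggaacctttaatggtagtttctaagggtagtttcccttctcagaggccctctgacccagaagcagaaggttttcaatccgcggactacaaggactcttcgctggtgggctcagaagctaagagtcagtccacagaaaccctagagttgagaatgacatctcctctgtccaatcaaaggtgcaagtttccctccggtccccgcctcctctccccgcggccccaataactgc
Cntnap2, chr6:45059811-45060060, plus strand: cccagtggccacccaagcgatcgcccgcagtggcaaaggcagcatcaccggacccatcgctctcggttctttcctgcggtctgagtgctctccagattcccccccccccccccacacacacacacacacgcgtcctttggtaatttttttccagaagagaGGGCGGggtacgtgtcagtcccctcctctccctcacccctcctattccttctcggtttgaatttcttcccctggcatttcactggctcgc
Cntnap5b, chr1:99772151-99772400, plus strand: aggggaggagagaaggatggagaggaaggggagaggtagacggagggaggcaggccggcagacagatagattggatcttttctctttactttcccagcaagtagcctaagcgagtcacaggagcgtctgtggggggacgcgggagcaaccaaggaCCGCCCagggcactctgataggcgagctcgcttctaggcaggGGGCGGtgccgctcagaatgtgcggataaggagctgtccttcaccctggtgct
The printed Cntn1 window held no GC box, that of Cntnap2 held 1 and that of Cntnap5b held 2. The G and C content of these printed windows was 53.6%, 59.6% and 60%, against a median of 52.4% over all windows. The table also held further starts of Cntn1 (32.8% and 43.6%) and Cntnap2 (45.2%), none with a GC box, so these counts depend on the start chosen. The windows of the other members ran from 26.4% with no CG pair for Cntn3 to 68.4% with 26 CG pairs for 1 start of Cntn5, so the base composition at the starts differed widely among members. A match to a motif describes these letters only.

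Cntn1 was the only member with a mean of 100 CPM or more in every population (the map of mean levels by population). It encodes contactin-1, the paranodal partner of Caspr. Its mean ranged only 2.52-fold, from 392 ± 39.1 CPM in proximal CA1 to 987 ± 118 CPM in dorsal CA3, or to ventral CA3 as the highest when levels were scaled by total reads. By FPKM its rank lay between 232 (ventral CA3) and 951 (proximal CA1) of 37492 genes. It supplied 79.9% (distal CA1) to 96.1% (amygdala-projecting CA1) of the summed FPKM of the 5 contactins. The median coefficient of variation of Cntn1 over the 16 populations was 6.77%, against 11.8% over all values at 100 CPM or more.

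**Figure D1:**
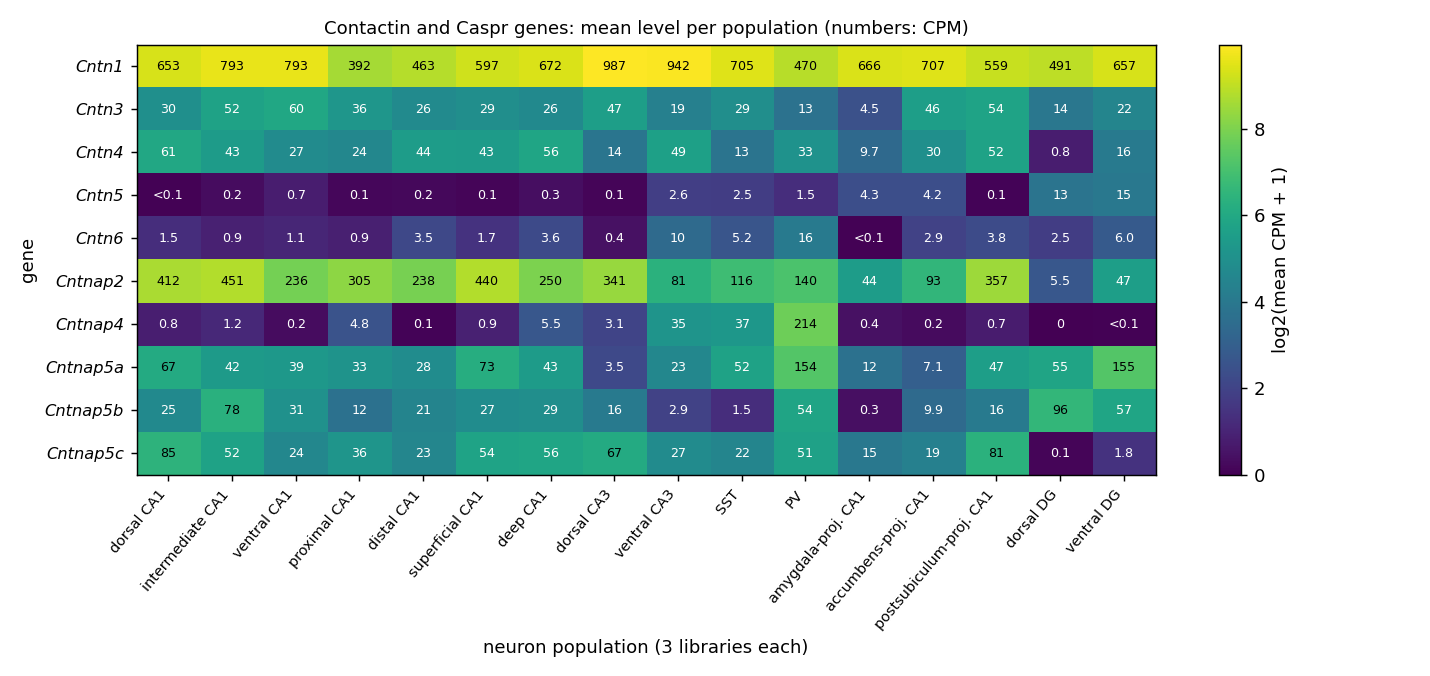
Mean level of each of the 10 genes (rows) in each of the 16 populations (columns), coloured by log2(mean CPM + 1), with the mean CPM of 3 libraries printed in each cell. Cntn1 is high throughout, between 392 and 987 CPM, while Cntn5, Cntn6 and Cntnap4 reach 10 CPM as a mean in only 2, 1 and 3 populations (Cntn6 in ventral CA3, at 9.96 CPM, is printed as 10).

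The other contactins were lower and more selective. Cntn3, which encodes BIG-1, had its highest mean in ventral CA1 at 59.8 ± 14.7 CPM, or in postsubiculum-projecting cells by FPKM, and its lowest in amygdala-projecting cells at 4.48 ± 3.35 CPM. No population stood apart from its neighbour in that order. Cntn4, which encodes BIG-2 and acts in axon guidance, had its highest mean in dorsal CA1 at 61.2 ± 3.96 CPM, or in deep CA1 by FPKM, and was 81.5-fold lower in dorsal DG at 0.75 ± 0.0689 CPM. Cntn5, which encodes NB-2, reached a mean of 10 CPM only in ventral DG at 14.8 ± 6.47 CPM and dorsal DG at 13.3 ± 8.41 CPM. Cntn6, which encodes NB-3, reached it only in PV interneurons at 16 ± 9.18 CPM. Both of these varied much between libraries: Cntn5 had values of 8.79, 23 and 8.04 CPM in dorsal DG and Cntn6 of 13, 8.67 and 26.3 CPM in PV cells.

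Cntnap2, which encodes Caspr2, had the highest FPKM of the 5 listed Caspr genes in every pyramidal population and its lowest level in dorsal granule cells. Its 3 libraries had 491, 372 and 492 CPM in intermediate CA1, the highest mean, and 2.26, 4.08 and 10.1 CPM in dorsal DG, the lowest, an 82.5-fold difference of means. It supplied the largest share of the summed FPKM of these 5 genes, which leaves out Cntnap1 and Cntnap3, in 13 populations, from 47.7% in ventral CA3 to 78.4% in proximal CA1. The remaining 3 populations had other leading genes (the stacked plot of FPKM). In PV interneurons Cntnap4 led with 38.5% (34.4% to 45.3% over libraries), in dorsal DG Cntnap5b led with 61.6% (56% to 66.3%), and in ventral DG Cntnap5a led with 46.6% (34.5% to 53.3%). Cntnap1, outside this sum, had a higher mean FPKM than Cntnap2 in ventral CA3 (21.7 ± 0.463 against 18.8 ± 6.92), amygdala-projecting (25.1 ± 2.38 against 17.5 ± 7.08) and accumbens-projecting cells (25.3 ± 3.6 against 23.5 ± 6.33) and in PV interneurons, and in dorsal DG it stood above Cntnap5b (39.3 ± 14.9 against 22.1). The sum of the 5 genes was largest in intermediate CA1 at 160 ± 20.5 FPKM and smallest in amygdala-projecting cells at 24.7 ± 5.83 FPKM.

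**Figure D2:**
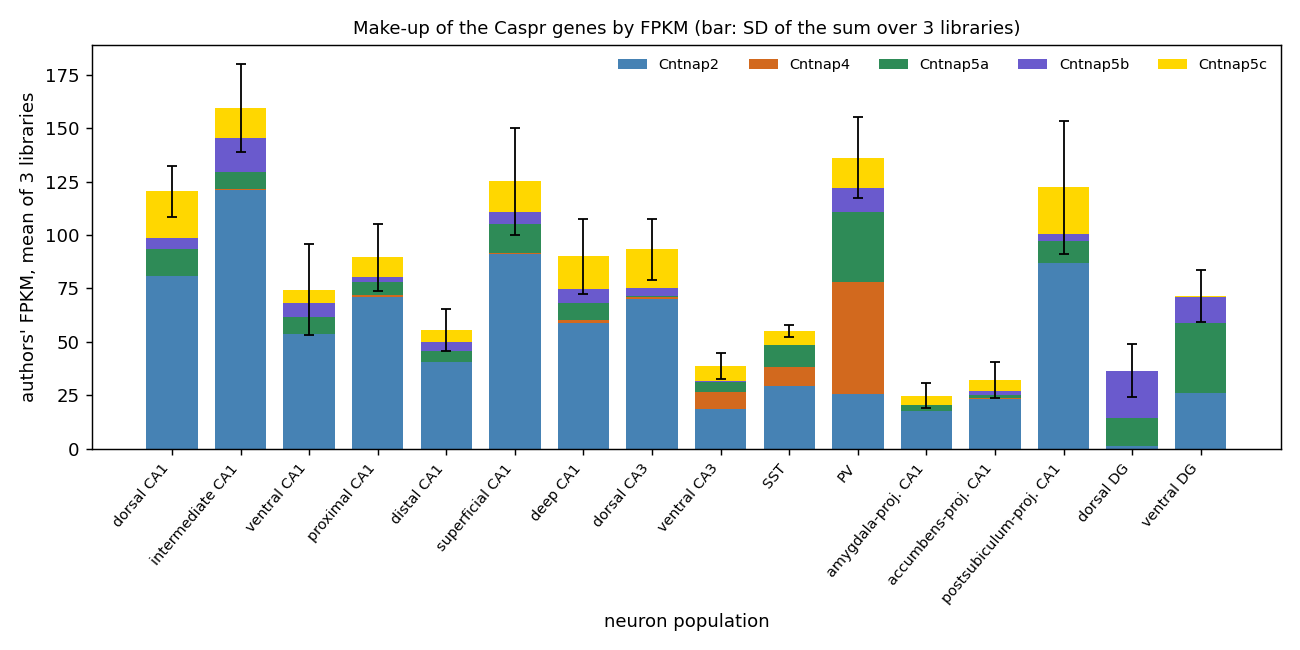
Mean FPKM of the 5 Caspr genes, stacked, in the 16 populations, with the SD of their sum over 3 libraries as the error bar. Cntnap2 (blue) is the largest of the 5 parts except in PV interneurons, where Cntnap4 holds 38.5%, and in dorsal and ventral DG, where Cntnap5b and Cntnap5a hold 61.6% and 46.6%.

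Cntnap4 was concentrated in PV interneurons. PV libraries had 231, 178 and 232 CPM, and these stood above every other library. SST libraries had 37.9, 36.6 and 37.3 CPM. Ventral CA3 libraries had 42, 32.3 and 30 CPM, which overlapped the SST libraries although their summed GABAergic markers were only 5.98 to 15 CPM, with Slc32a1 and Lhx6 without a read. No other population had a mean above 5.52 CPM, and dorsal DG had no read in 3 libraries, which allows at most 0.377 to 0.409 CPM per library for counting error. Among CA1 populations, the first proximal library had 13.6 CPM of Cntnap4 with summed GABAergic markers of 269 CPM, against 0.692 and 0.15 CPM in the other proximal libraries, whose markers summed to 2.96 and 2.19 CPM. Deep CA1 libraries had 4.74, 6.93 and 4.88 CPM with markers of 262, 621 and 1056 CPM. The third accumbens-projecting library had markers of 131 CPM and no Cntnap4 read, and the second postsubiculum-projecting one had 95.3 CPM of markers and 0.162 CPM of Cntnap4. The part of the GABAergic markers in these values was not tested.

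The Cntnap5 genes encode 3 closely related Caspr5 proteins, and each had a profile of its own. Cntnap5a was highest in ventral DG at 139, 155 and 169 CPM and in PV interneurons at 137, 137 and 188 CPM, with PV first by FPKM. Cntnap5b had its highest means in dorsal DG (124, 81.3 and 83.4 CPM) and intermediate CA1 (56.7, 105 and 70.8 CPM), which overlapped, and its lowest in amygdala-projecting cells (0.846, 0.0742 and 0.0517 CPM), 297-fold below the first. Cntnap5c was highest in dorsal CA1 at 85.9, 85.9 and 84.1 CPM and had 2 reads in all in dorsal DG. The sources used here do not say how reads shared by similar genes were counted, so these 3 levels carry that uncertainty.

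**Figure D3:**
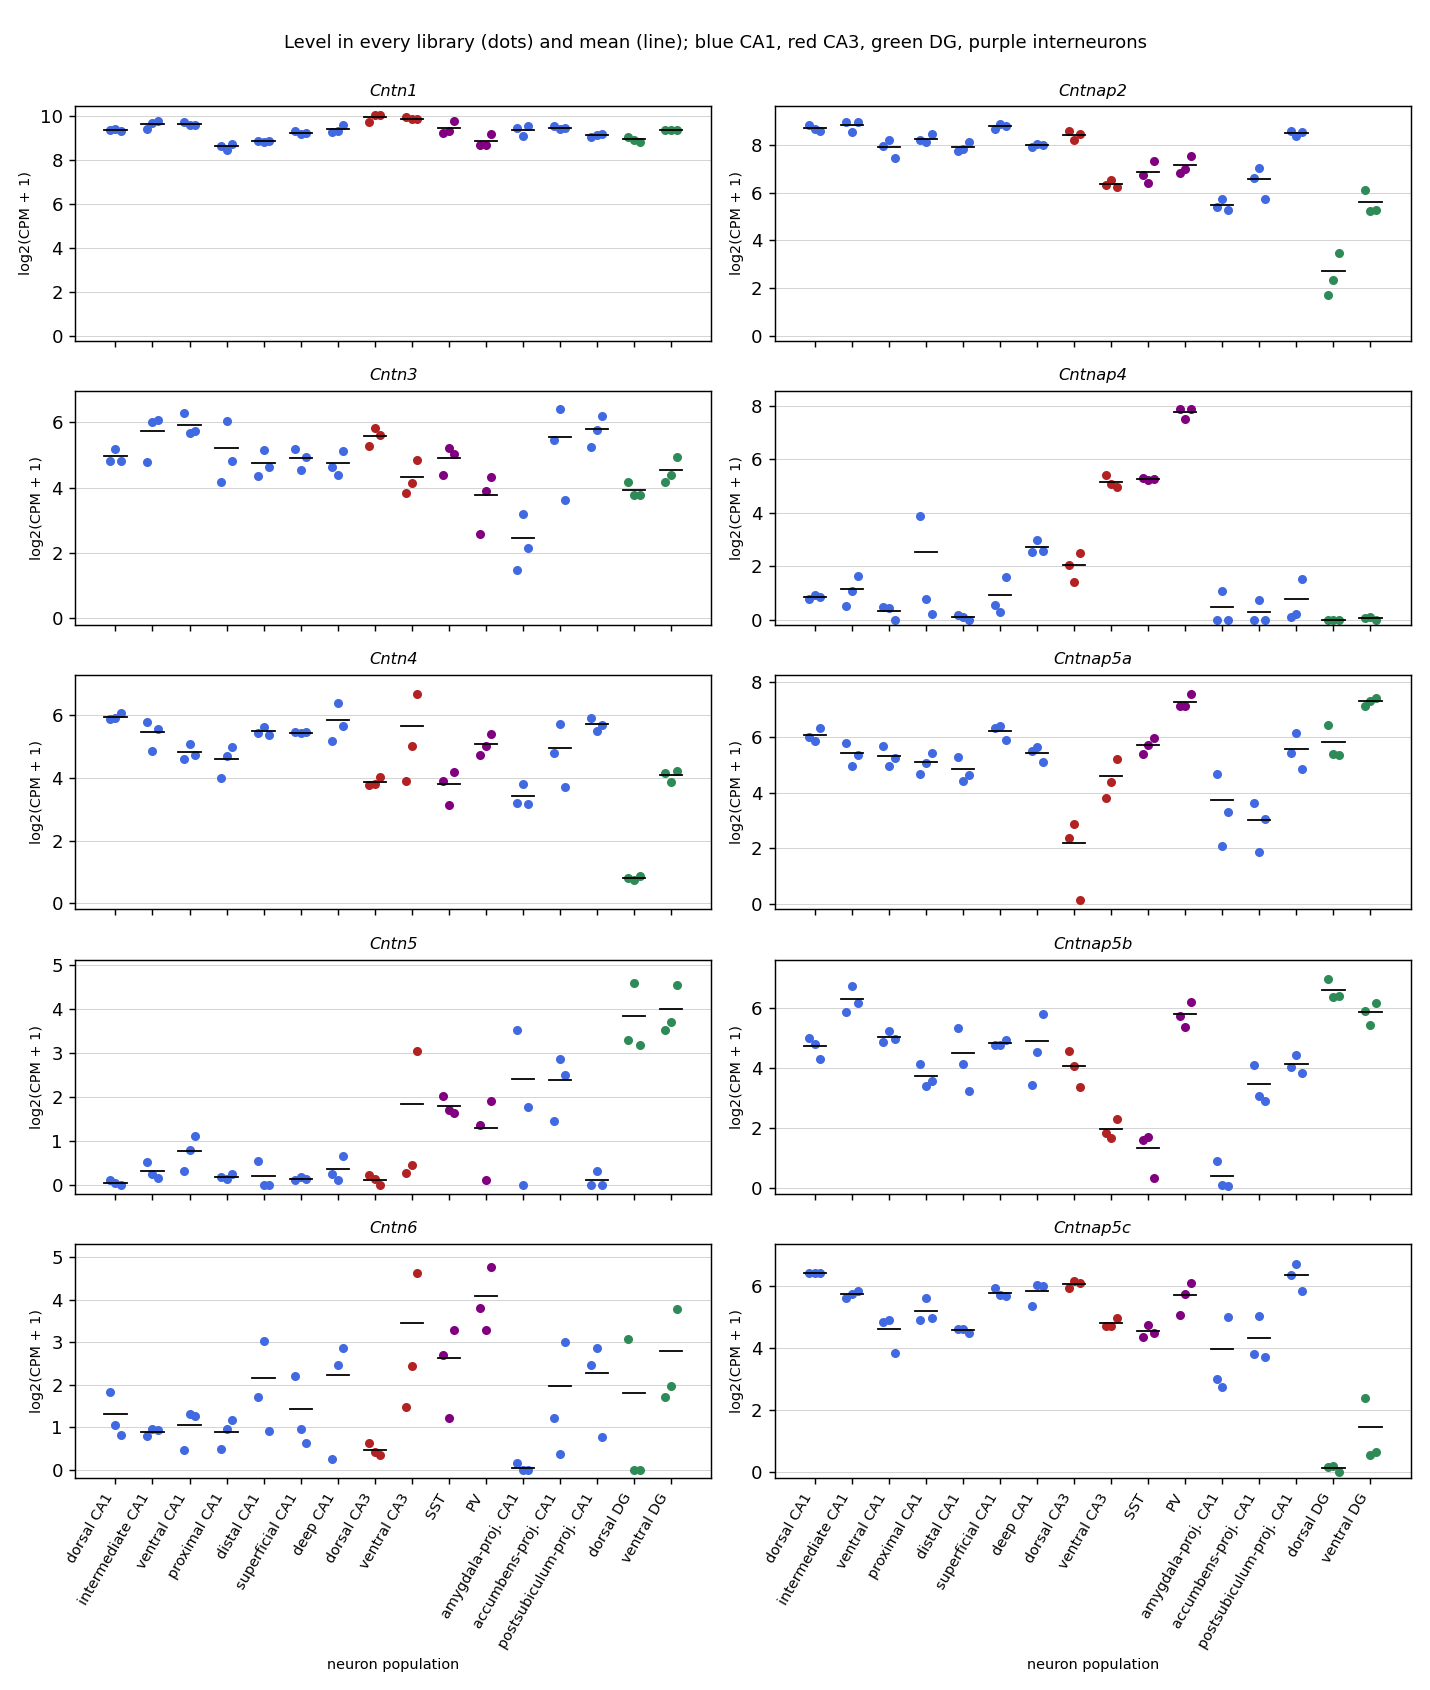
Level of each gene in all 48 libraries on a log2(CPM + 1) scale, with 3 dots and their mean as a line for each of the 16 populations. Cntnap4 stands highest in PV interneurons (178 to 232 CPM), followed by SST interneurons and ventral CA3, which overlap, while 1 ventral CA3 library stands high for Cntn4 at 102 CPM and for Cntn5 at 7.19 CPM.

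The first comparison asked how the members differ along the long axis of CA1, whose spatial gradients are the subject of the series. A gene is called here when its adjusted p from edgeR was under 0.05 over all genes tested. Cntn4, Cntnap2 and Cntnap5c were higher in dorsal and Cntn1 and Cntn3 higher in ventral CA1, so 5 of the 8 members that passed the filter on low counts were called, against 15.1% of all genes tested. Cntn5 and Cntnap4 did not pass the filter. The 2 groups also differed in depth and in the share of spike-in reads without overlap: dorsal libraries had 22.1 to 30.1 M reads in genes and 0.511% to 1.01% ERCC reads, ventral ones 5.12 to 8.35 M and 2.72% to 8.29%, and the part of these in the calls was not tested. The median log2 difference, dorsal over ventral, was 0.57 for the members tested and -0.01 for all genes.

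Cntnap5c showed the largest of these differences. Ventral libraries had 27.6, 29.3 and 13.5 CPM, all below the lowest dorsal library at 84.1 CPM, with intermediate CA1 between them at 47.8, 52.4 and 56.3 CPM. The log2 difference was 1.82 (SE 0.24, adjusted p = 2.26e-05). Cntn4 had 58.4, 59.4 and 65.7 CPM in dorsal and 23.1, 32.8 and 25.8 CPM in ventral CA1, a log2 difference of 1.13 (SE 0.25, adjusted p = 0.00291). Both profiles stepped down from dorsal through intermediate to ventral means. For Cntnap2, dorsal libraries had 447, 407 and 380 CPM and ventral ones 244, 294 and 172 CPM, without overlap (log2 0.76, SE 0.16, adjusted p = 0.00182). Cntn3 went the other way, from 27.4, 35.2 and 27.4 CPM dorsally to 76.6, 50.2 and 52.4 CPM ventrally (log2 -1.04, SE 0.28, adjusted p = 0.0144). Cntn1 differed less, with 653, 674 and 631 CPM against 847, 763 and 770 CPM (log2 -0.33, SE 0.09, adjusted p = 0.0225), but its groups did not overlap either. When 1 library was omitted, the calls of Cntn1 and Cntn3 were the least stable of these 5. They were kept in 2 and 3 of 6 omissions. Adjusted p went up to 0.0995 without the first ventral library for Cntn1 and 0.083 without the same library for Cntn3. With all 48 libraries in the model, of these 5 only Cntnap5c stayed called (adjusted p = 0.155 for Cntn4, 0.119 for Cntnap2, 0.424 for Cntn1 and 0.41 for Cntn3). Cntnap5a, at 66.8 ± 11.5 against 39 ± 10.6 CPM (log2 0.73), missed the threshold with edgeR (adjusted p = 0.0537) and passed it with DESeq2 (0.0403), without the filter on low counts (0.011), with a replicate block (0.0265) and without the first ventral library (0.0169).

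Cntnap5b had its highest CA1 level in intermediate cells. It was the 1 of 8 members called between dorsal and intermediate cells (4.93% of all genes), with 30.7, 26.8 and 18.6 CPM against 56.7, 105 and 70.8 CPM (log2 -1.64, SE 0.25, adjusted p = 5.10e-04). It was also higher in intermediate than in ventral CA1, where libraries had 27.9, 36.1 and 29.9 CPM (log2 1.29, SE 0.25, adjusted p = 0.00392). Cntnap2 (log2 0.92, adjusted p = 0.00111) and Cntnap5c (log2 1.14, adjusted p = 0.00738) were the other members of the 3 called between intermediate and ventral CA1, against 5.03% of all genes. Between dorsal and ventral cells Cntnap5b itself was not called, at a log2 difference of -0.35 (SE 0.25, adjusted p = 0.438). Without the first intermediate library, Cntn1 (log2 -0.39, adjusted p = 0.0161) and Cntn3 (log2 -1.12, adjusted p = 0.00724) were also called as lower in dorsal than intermediate CA1. The model of all 48 libraries kept no call against dorsal (Cntnap5b 0.359) or ventral cells (Cntnap5b 0.625, Cntnap2 0.2, Cntnap5c 0.623). Intermediate libraries had 6.70 to 10.39 M reads in genes and 2.175% to 4.553% ERCC reads. Neither range overlapped that of dorsal libraries, and the part of these in the calls was not tested.

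In CA3, 7 of 10 members were called along the same axis, against 4.97% of all genes. Cntn3, Cntnap2 and Cntnap5b were higher dorsally, and Cntn4, Cntn5, Cntnap4 and Cntnap5a ventrally. The median log2 difference of the members was -0.87, against -0.04 over all genes. Cntnap4 had 3.16, 1.64 and 4.66 CPM in dorsal and 42, 32.3 and 30 CPM in ventral CA3 (log2 -3.44, SE 0.70, adjusted p = 0.00485). Its ventral libraries all lay far above the dorsal ones, and the call was kept in every omission of 1 library. It was not made with all 48 libraries in the model (adjusted p = 0.138). Cntnap2 fell from 385, 293 and 345 CPM dorsally to 77.7, 91.4 and 73.4 CPM ventrally (log2 2.10, SE 0.32, adjusted p = 1.99e-04). Cntnap5b went from 22.6, 15.7 and 9.16 CPM to 2.55, 2.13 and 3.89 CPM (log2 2.48, SE 0.35, adjusted p = 1.01e-04). Cntn3 stood at 47.1 ± 9.17 and 19.2 ± 7.38 CPM (log2 1.31, adjusted p = 0.0169), a call kept in 2 of 6 omissions, with adjusted p of 0.0622 to 0.12 in the others. The model of all 48 libraries did not call Cntn3 here either (adjusted p = 0.226). Cntnap5c, at 66.6 ± 5.21 and 26.9 ± 3.09 CPM, did not overlap but was not called (log2 1.32, SE 0.49, adjusted p = 0.161).

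The calls of 3 members along the CA3 axis ended when 1 library was left out. The third ventral CA3 library had 102 CPM of Cntn4, 7.19 CPM of Cntn5, 23.7 CPM of Cntn6 and 36.1 CPM of Cntnap5a, each the highest of the 3. Without it the log2 difference of Cntn4 went from -1.83 to -0.71 (adjusted p = 0.433), that of Cntn5 from -4.80 to -1.63 (adjusted p = 0.602) and that of Cntnap5a from -2.69 to -2.20 (adjusted p = 0.0715). Cntnap5a was also not called without the filter on low counts (adjusted p = 0.105). Leaving out a dorsal CA3 library also ended the calls of Cntn4 and Cntn5, with adjusted p of 0.0625 to 0.14. Cntn6 was not called with all libraries (adjusted p = 0.0818). The same library had summed CA3 markers of 201 CPM against 409 and 406 CPM in the other ventral CA3 libraries, CA2 markers of 119 against 196 and 176 CPM, and granule cell markers of 0.379 against 8.15 and 9.02 CPM. The part of these differences in the result was not tested.

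Granule cells of the DG differed along their axis in 4 of 10 members, all higher ventrally, against 19.4% of all genes in either direction. Dorsal and ventral DG libraries also differed in depth and in the share of spike-in reads without overlap. Dorsal ones had 6.78 to 7.85 M reads in genes and 2.68% to 4.06% ERCC reads. Ventral ones had 14.76 to 16.47 M and 0.969% to 1.325%, and the part of these in the calls was not tested. Cntn4 had 0.754, 0.68 and 0.817 CPM in dorsal and 16.8, 13.5 and 17.8 CPM in ventral DG (log2 -4.37, SE 0.58, adjusted p = 2.15e-05). The libraries of a group lay close together and the groups far apart. Cntnap2 had 2.26, 4.08 and 10.1 CPM dorsally and 68.1, 36.3 and 37.3 CPM ventrally (log2 -3.08, SE 0.36, adjusted p = 5.26e-06). Cntnap5c was near absent, with 2 reads in dorsal and 93 reads in ventral DG, a ratio of 20.8 with a 95% counting interval of 5.6 to 174 (adjusted p = 0.0048), with 4.24 CPM in the first ventral library against 0.46 and 0.571 CPM in the others. Without that first library the log2 difference of Cntnap5c was -2.43 (adjusted p = 0.0349). Cntn1 had 532, 485 and 457 CPM dorsally and 665, 654 and 651 CPM ventrally (log2 -0.38, SE 0.10, adjusted p = 0.0139). That call was not made with all 48 libraries in the model (adjusted p = 0.0532). Cntnap5b, with 96.1 ± 23.9 against 56.8 ± 14.3 CPM, and Cntnap5a, with 55.4 ± 26.1 against 155 ± 15 CPM, did not overlap between groups but missed the threshold (adjusted p = 0.094 and 0.0976). The median log2 difference was -1.33 for the members and -0.05 for all genes.

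The size of the long-axis difference was itself tested between regions. Of 10 members, 5 differed between CA1 and CA3, against 3.52% of all genes: Cntn4, Cntnap4 and Cntnap5a were shifted toward dorsal in CA1 relative to CA3, and Cntn3 and Cntnap5b toward ventral. Cntn3 rose ventrally in CA1 and dorsally in CA3 (difference of log2 values -2.33, SE 0.45, adjusted p = 0.00331), and Cntn4 did the reverse (2.97, SE 0.65, adjusted p = 0.00869). For Cntnap4 the CA1 side rested on 62 reads in dorsal and 5 in ventral CA1. With all 48 libraries in the model, Cntnap4 (adjusted p = 0.223), Cntn3 (0.0975) and Cntnap5b (0.0587) were not called. Without the third ventral CA3 library the Cntn4 term was 1.85 (adjusted p = 0.0346), and that of Cntnap5a went from 3.44 (adjusted p = 0.0299) to 2.96 (adjusted p = 0.0798). The Cntnap5a call was kept in 4 of 12 omissions of 1 library, with an adjusted p of up to 0.0963 without the second ventral CA1 library. It was also not made without the filter on low counts (adjusted p = 0.163). Cntnap2, called as higher dorsally in both regions, did not pass this test (-1.32, SE 0.43, adjusted p = 0.123). Between CA1 and DG, 3 of 10 members differed, against 9.71% of all genes. These were Cntnap2 (3.86, SE 0.47, adjusted p = 1.79e-05), Cntn4 (5.52, SE 0.74, adjusted p = 5.52e-05) and Cntnap5c (6.03, SE 1.08, adjusted p = 0.00111), each called as higher in dorsal CA1 and in ventral DG. The size for Cntnap5c depends on the prior count of the fit, since dorsal DG held only 2 reads.

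**Figure D4:**
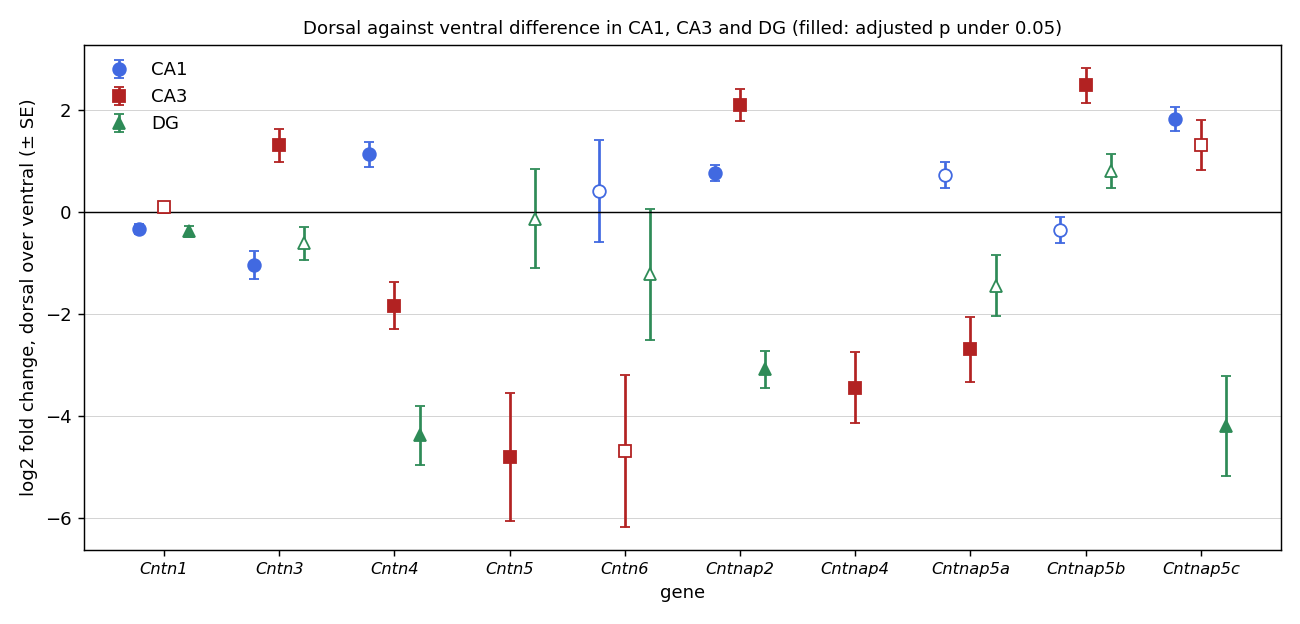
Log2 fold change, dorsal over ventral, with SE, for each gene in CA1 (circles, fit of 9 libraries) and in CA3 (squares) and DG (triangles, both from the fit of 18 libraries); filled symbols passed an adjusted p of 0.05. Cntnap2 lies above 0 in CA1 (0.76) and CA3 (2.10) and below 0 in DG (-3.08), and Cntn3 lies on opposite sides in CA1 (-1.04) and CA3 (1.31); genes below the filter and Cntnap4 in DG, with 2 reads in all, are not drawn.

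Averaged over dorsal and ventral cells, with 6 libraries a region, the 3 principal cell types had different sets of Caspr and contactin genes. Between CA1 and CA3, 5 of 10 members were called, against 13.5% of all genes. Cntnap5a (log2 2.50, SE 0.45, adjusted p = 4.90e-04), Cntnap5b (2.07, SE 0.24, adjusted p = 2.47e-06) and Cntnap2 (0.91, SE 0.22, adjusted p = 0.00566) were higher in CA1, though libraries of the regions overlapped for all 3. The Cntnap2 call was not made without the filter on low counts (adjusted p = 0.052). Cntnap4 at 0.526 ± 0.337 against 19 ± 17.8 CPM (-4.56, SE 0.56, adjusted p = 6.87e-06) and Cntn1 at 723 ± 83.6 against 964 ± 82.5 CPM (-0.42, SE 0.07, adjusted p = 3.12e-04) were higher in CA3 without overlap. Cntn4 was not called (log2 0.66, adjusted p = 0.21) but was higher in CA1 without the third ventral CA3 library (log2 1.22, adjusted p = 0.00186).

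Granule cells stood furthest apart. Against CA1, 8 of 10 members were called (33.1% of all genes), and against CA3, 9 of 10 (36.5% of all genes). Cntnap2 was at 26.3 ± 25.7 CPM over the 6 DG libraries, 324 ± 106 CPM in CA1 (log2 4.28, SE 0.25, adjusted p = 4.49e-11) and 211 ± 146 CPM in CA3 (log2 3.37, SE 0.25, adjusted p = 8.77e-10). Cntnap5c, at 0.922 ± 1.64 CPM in DG, was at 54.4 ± 34.3 CPM in CA1 (log2 6.76, SE 0.52, adjusted p = 2.06e-09) and 46.8 ± 22.1 CPM in CA3 (log2 6.68, SE 0.52, adjusted p = 2.24e-09). Cntn4 was also lower in DG than in both (log2 3.55, adjusted p = 2.16e-07, and 2.89, adjusted p = 2.74e-06), as were Cntn1 (0.34 and 0.76) and Cntn3 (1.25 and 0.76), the last with an adjusted p of 0.054 against CA3 without the third ventral CA3 library. Another 2 members went the opposite way against both regions. Cntn5, at 14.1 ± 6.77 CPM in DG, was at 0.376 ± 0.468 CPM in CA1 (log2 -6.26, SE 0.92, adjusted p = 1.67e-05) and at 1.34 ± 2.87 CPM in CA3 (log2 -4.84, SE 0.84, adjusted p = 1.24e-04), with no overlap in either case. Cntnap5b, at 76.4 ± 27.8 CPM in DG, exceeded CA1 (log2 -1.39, SE 0.24, adjusted p = 1.02e-04) and CA3 (log2 -3.46, SE 0.26, adjusted p = 1.21e-09). Cntnap4 had 2 reads in 6 DG libraries against 2863 in CA3, a ratio of 769 with a 95% counting interval of 213 to 6356 (adjusted p = 3.76e-08), and 67 in CA1, a ratio of 24.8 (6.61 to 209, adjusted p = 0.00121). Cntnap5a was called only against CA3 (log2 -3.36, SE 0.46, adjusted p = 1.11e-05), where DG was higher. The model of all 48 libraries did not call Cntnap4 between CA1 and DG (adjusted p = 0.088) or Cntn3 between CA3 and DG (0.111). These comparisons share their DG libraries, so their calls are not independent.

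PV and SST cells differed in 3 of 10 members by edgeR, against 3.51% of all genes, and all 3 were higher in PV cells. Their libraries also differed in depth and spike-in share without overlap. PV libraries had 25.26 to 26.07 M reads in genes and 0.151% to 0.207% ERCC reads. SST ones had 15.69 to 21.68 M and 0.233% to 0.664%, and the part of these in the calls was not tested. Cntnap4 had a log2 difference of 2.51 (SE 0.23, adjusted p = 3.39e-04). Cntnap5b had 52, 39.7 and 71.8 CPM in PV and 2.03, 2.2 and 0.246 CPM in SST cells (log2 5.18, SE 0.71, adjusted p = 0.00321), groups far apart although PV libraries also held 240 to 920 CPM of Sst. Cntnap5a had 137, 137 and 188 against 40.9, 52.1 and 62.5 CPM (log2 1.56, SE 0.26, adjusted p = 0.00908), and its adjusted p was 0.063 without the third PV library. Cntn1, Cntn3 and Cntn4 did not overlap between the groups but were not called by edgeR (adjusted p = 0.209, 0.281 and 0.149). The same held for Cntnap5c, with 32.7, 52.7 and 68.5 CPM in PV and 19.4, 26 and 21.3 CPM in SST cells. The share of all genes whose libraries did not overlap was not counted, here or for the other comparisons. Nothing is read from a lack of overlap alone. DESeq2 also called Cntn4 (log2 1.32, adjusted p = 0.0288) and Cntnap5c (log2 1.19, adjusted p = 0.0179), and edgeR with all 48 libraries called Cntn1 (log2 -0.57, adjusted p = 0.00516). In that model of all 48 libraries, Cntnap4 (adjusted p = 0.191) and Cntnap5a (0.117) were no longer called. The median log2 difference of the members was 1.26 and that of all genes 0.00.

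Against dorsal CA1 pyramidal cells, 7 of 9 members tested were called in PV cells (36.5% of all genes) and 6 of 10 in SST cells (30.3% of all genes). Both comparisons used the same dorsal CA1 libraries. Cntnap4 was higher in both, with 0.714, 0.876 and 0.819 CPM in dorsal CA1 (log2 8.06, SE 0.25, adjusted p = 2.74e-08 for PV, and 5.56, SE 0.36, adjusted p = 1.44e-05 for SST). Cntnap2 and Cntn4 were lower in both: Cntnap2 by a log2 value of -1.54 (SE 0.19, adjusted p = 1.52e-04) in PV and -1.79 (SE 0.25, adjusted p = 9.07e-04) in SST cells, and Cntn4 by -0.88 (adjusted p = 0.0174) and -2.19 (adjusted p = 0.00158). Cntnap5b had opposite signs, at 1.12 (SE 0.30, adjusted p = 0.016) in PV and -4.05 (SE 0.73, adjusted p = 0.0036) in SST cells. Cntn6 and Cntnap5a were called as higher in PV but not in SST cells (log2 3.46, adjusted p = 0.00288, and 1.21, adjusted p = 0.00118), though PV and SST cells themselves did not differ beyond their spread in Cntn6 (adjusted p = 0.335). Cntn1 was lower in PV cells than in dorsal CA1 (-0.46, adjusted p = 0.0339). Cntn5 was called in SST cells, with 148 reads against 3 in dorsal CA1, a ratio of 62.9 (95% counting interval 21.1 to 308), and Cntnap5c was lower there (log2 -1.90, adjusted p = 3.56e-04). In omissions of 1 library, the PV calls of Cntn1, Cntn4 and Cntnap5b were kept in 1, 3 and 3 of 6 cases, with adjusted p up to 0.0994, 0.0683 and 0.0719, and the SST call of Cntn5 was lost without the second dorsal library (adjusted p = 0.0555). The model of all 48 libraries lost the PV calls of Cntn4 (adjusted p = 0.158), Cntn6 (0.0543), Cntnap5a (0.125) and Cntnap5b (0.129). It called Cntn5 as higher in PV cells (adjusted p = 0.0165).

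Across the transverse and radial axes of CA1 few members moved. None of 8 was called between proximal and distal cells (1.06% of all genes), and 2 had an unadjusted p under 0.05, Cntn4 and Cntnap2, against 13.5% of all genes at that level. DESeq2 called 1 member there, Cntnap4 (adjusted p = 0.00461), whose first proximal library stood above the others, as given with its GABAergic markers, and their part in the call was not tested. Between superficial and deep cells Cntnap2 was the 1 of 9 members called (2.48% of all genes). Superficial libraries had 404, 473 and 442 CPM and deep ones 239, 261 and 250 CPM (log2 0.78, SE 0.10, adjusted p = 0.00272). Cntnap2 was not called here with all 48 libraries in the model (adjusted p = 0.284). Depth and spike-in share also separated these groups. Superficial libraries had 20.31 to 24.55 M reads in genes and 0.015% to 0.021% ERCC reads. Deep ones had 12.22 to 15.42 M and 0.662% to 0.814%, and the part of these in the call was not tested. Cntnap4 at 0.45, 0.208 and 2.02 against 4.74, 6.93 and 4.88 CPM, and Cntnap5a at 73.3 ± 13.1 against 42.6 ± 8.28 CPM, did not overlap but missed the threshold with edgeR (adjusted p = 0.227 and 0.148). DESeq2 called both (adjusted p = 0.0482 and 0.0301). GABAergic markers in the deep libraries summed to 262 to 1056 CPM, against 16.6 to 197 CPM in superficial ones, and their part in the Cntnap4 values was not tested.

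Cntnap2 was lower in both ventral projection groups than in ventral CA1 cells at large. Depth and spike-in share also separated both groups from ventral CA1, which had 5.12 to 8.35 M reads in genes and 2.72% to 8.29% ERCC reads. Amygdala-projecting libraries had 14.17 to 20.91 M and 0.637% to 1.192%. Accumbens-projecting ones had 13.82 to 17.33 M and 0.64% to 1.112%. The part of these in the calls was not tested. Amygdala-projecting cells differed from ventral CA1 cells in 3 of 9 members, all lower (2.38% of all genes in either direction). Cntnap2 had 41.6, 52.6 and 37.8 CPM against 244, 294 and 172 CPM (log2 -2.41, SE 0.34, adjusted p = 9.92e-04). Cntnap5b had 0.846, 0.0742 and 0.0517 CPM against 27.9, 36.1 and 29.9 CPM (log2 -6.53, SE 1.04, adjusted p = 0.00246). Cntn3 had 1.8, 8.24 and 3.41 CPM against 76.6, 50.2 and 52.4 CPM (log2 -3.72, SE 0.72, adjusted p = 0.0107), and its adjusted p was 0.0696 without the third amygdala-projecting library and 0.0566 without the first ventral one. The groups did not overlap for any of the 3. In accumbens-projecting cells, set against the same ventral libraries, edgeR called 1 of 9 members (2.04% of all genes), Cntnap2 with 95.4, 131 and 51.7 CPM (log2 -1.34, SE 0.33, adjusted p = 0.0495). That call was kept in 1 of 6 omissions of a library, with adjusted p of up to 0.304 without the second ventral library, and was not made with RLE scaling (adjusted p = 0.0517). Cntnap5a, at 7.06 ± 4.32 against 39 ± 10.6 CPM without overlap, was not called by edgeR (log2 -2.45, adjusted p = 0.128) but was by DESeq2 (0.0161), without the filter on low counts (0.029) and with all 48 libraries in the model (0.013).

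Between the amygdala and accumbens groups the calls depended on the setting. None of 9 members was called by edgeR as for the other comparisons, where 0.0231% of all genes were, and 5 had an unadjusted p under 0.05 against 9.19% of all genes: Cntnap5b, Cntn3, Cntnap2, Cntn6 and Cntn4. DESeq2 called Cntn3 (log2 -3.37, adjusted p = 3.40e-04), Cntnap5b (-4.92, adjusted p = 2.3e-06) and Cntn6 (adjusted p = 0.0282). Without the filter on low counts edgeR called Cntn3 (adjusted p = 8.4e-07), Cntnap5b (2.87e-04) and Cntnap2 (0.0433), and with all 48 libraries in the model it called Cntn3, Cntn4, Cntn6, Cntnap2 and Cntnap5b. It also called Cntnap5b without the first amygdala library (0.0379) and Cntn3 without the third accumbens library (0.0288). For Cntn6 the third accumbens library had 7.03 CPM against 1.34 and 0.294 CPM in the others, and the same library had 516 CPM of Sst and summed GABAergic markers of 131 CPM, whose part in the Cntn6 value was not tested. Cntnap5b had 16.1, 7.27 and 6.36 CPM in accumbens-projecting cells, all above the amygdala-projecting libraries, and Cntn3 had 42.9, 84.3 and 11.3 CPM. Accumbens libraries themselves spread widely for these genes, with a coefficient of variation of 79.3% for Cntn3 and 42.7% for Cntnap2. Postsubiculum-projecting cells did not differ from dorsal CA1 in any of 9 members by edgeR (10.8% of all genes), 2 had an unadjusted p under 0.05 (Cntn3 and Cntn1, against 25.9% of all genes), and DESeq2 called Cntn3 alone (log2 0.89, adjusted p = 0.0172), with 36.7, 53.1 and 72.4 CPM against 27.4, 35.2 and 27.4 CPM.

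Over the 19 comparisons, many of which share libraries, members were tested 176 times and called 71 times, or 40.3%, against 12.8% of all tests of all genes. Cntnap2 was called most often, in 13 of 19, followed by Cntnap5b in 11, Cntn4 in 9, Cntnap4 in 8 of the 12 in which it passed the filter, and Cntnap5c in 7. Cntn1, Cntn3 and Cntnap5a were called in 6 each, Cntn5 in 4 of 12 and Cntn6 in 1.

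The 3 relatives outside the list had patterns of their own. Cntnap3 had no read in dorsal CA1 and 4.1 ± 0.23 CPM in ventral CA1, at least 34.5-fold higher against a floor of 3 reads per library (adjusted p = 4.70e-04), and was at least 176-fold higher in PV and 327-fold higher in SST cells. Cntnap1, which encodes Caspr itself, was higher in dorsal than ventral DG, at 178 ± 68.3 against 44.6 ± 2.75 CPM (log2 2.03, SE 0.26, adjusted p = 1.46e-05), the reverse of the 4 members called there. Cntn2, the partner of Caspr2, was at 39.8 ± 5.2 CPM in CA1 and 2.26 ± 1.93 CPM in DG (log2 4.76, SE 0.35, adjusted p = 1.02e-09), and was also higher in ventral than dorsal DG (log2 -2.85, SE 0.52, adjusted p = 6.25e-04), as Cntnap2 was. Cntnap1 was higher in amygdala-projecting (119 ± 11.2 CPM) and accumbens-projecting cells (123 ± 21.6 CPM) than in ventral CA1 (45.2 ± 13.7 CPM), where Cntnap2 was lower in both (adjusted p = 0.016 for each Cntnap1 difference).

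A list of 33 partner and related genes, among them neurofascin, L1 family members, Shaker channel subunits, neurexins and the amyloid precursor family, was called in 199 of 615 tests, or 32.4%, against 12.8% of all tests over all genes, whose share ran from 0.0231% to 36.5% by comparison. Along the CA1 axis 18 of 32 tested were called (15.1% of all genes), 9 in each direction, led by Nrxn3, Chl1 and Ptprg. Nrxn3, a presynaptic neurexin, was at 521 ± 51 CPM dorsally and 104 ± 5.97 CPM ventrally (log2 2.28, SE 0.13, adjusted p = 8.65e-10), and Ptprg, a receptor phosphatase that binds contactins, at 161 ± 29.9 and 424 ± 34.4 CPM (log2 -1.44, adjusted p = 4.65e-07). In CA3, 7 of 33 were higher dorsally and 1 ventrally (4.97% of all genes), and in DG 9 and 8 of 33 (19.4%). Among the leading genes in DG were Kcnab2, a channel beta subunit (166 ± 10.5 against 75.8 ± 12.6 CPM, log2 1.17, adjusted p = 1.38e-05), and L1cam (28.7 ± 20.6 against 108 ± 10.5 CPM, log2 -1.86, adjusted p = 4.12e-04). The long-axis difference of Nrxn3 differed between CA1 and DG (3.09, SE 0.25, adjusted p = 6.84e-08), 1 of the 9 partners called in that test (9.71% of all genes).

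Between regions the partner list was called in 16 of 33 genes for CA1 against CA3 (6 higher in CA1, 10 in CA3, against 13.5% of all genes), in 24 for CA1 against DG (18 and 6, against 33.1%) and in 21 for CA3 against DG (17 and 4, against 36.5%). App, whose product binds contactins, was at 963 ± 41.6 CPM in CA1, 895 ± 53.4 CPM in CA3 and 318 ± 47.7 CPM in DG (log2 1.61, adjusted p = 3.63e-13 for CA1 against DG). Epb41l3, the protein 4.1B that anchors Caspr2 at the axonal membrane, was at 189 ± 59.6 CPM in CA1 and 35.4 ± 16.6 CPM in DG (log2 2.44, adjusted p = 1.71e-08), with no overlap between regions. PV and SST cells differed in 7 of 32 partners (3.51% of all genes), 4 of them higher in PV: Kcna1, a channel subunit of Caspr2 complexes, stood at 731 ± 128 against 175 ± 69.8 CPM (log2 2.05, SE 0.29, adjusted p = 0.00352), and Ptprz1, a contactin-binding phosphatase, at 0.695 ± 0.398 against 44 ± 18.4 CPM (log2 -5.99, SE 0.63, adjusted p = 6.53e-04). Oligodendrocyte markers summed to 49.6 to 722 CPM in SST and 5.01 to 33.5 CPM in PV libraries, and microglia markers to 16.7 to 52.2 and 0.313 to 5.16 CPM. Sums for oligodendrocyte precursors (1.1 to 17.7 and 0.199 to 3.25 CPM) and astrocytes (4.45 to 23.7 and 0.391 to 13.6 CPM) overlapped. Their part in the Ptprz1 difference was not tested. Against dorsal CA1, 20 of 32 partners were called in PV cells (5 higher, 15 lower, against 36.5% of all genes) and 15 of 32 in SST cells (4 and 11, against 30.3%).

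On the smaller CA1 comparisons the partner counts were 7 of 32 between dorsal and intermediate (3 higher dorsally, 4 lower, against 4.93% of all genes), 7 of 32 between intermediate and ventral (5 and 2, against 5.03%), 3 of 32 between proximal and distal (all higher proximally, led by Nrxn2, against 1.06%) and 8 of 32 between superficial and deep cells (2 and 6, against 2.48%). Of the projection groups, postsubiculum-projecting cells differed in 9 of 32 (3 higher, 6 lower than dorsal CA1, against 10.8% of all genes), and accumbens- and amygdala-projecting cells differed from ventral CA1 in 3 and 1 (2.04% and 2.38% of all genes), Chl1 being lower in both.

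Across the 16 population means, on the log2(CPM + 1) scale, Cntnap2 and Cntnap5c had the most similar profiles of any pair of members (Pearson r = 0.90), followed by Cntn4 with Cntnap2 (0.81) and Cntn4 with Cntnap5c (0.79). Cntn5 ran opposite to Cntnap2 (-0.92) and to Cntnap5c (-0.90). Its population means had a median of 0.497 CPM and reached 10 CPM in only 2 populations, so most of its profile lies at low counts. The largest correlation of Cntn1 with another member was -0.45 (Cntnap5a). Among 9885 named genes that reached 10 CPM in at least 1 population, the profiles most like that of Cntnap4 were Kank4 (0.96) and Fgf1 (0.94), and those most like Cntnap5c were Pcnx2 (0.95) and Sgtb (0.93). For Cntnap2 they were Senp2 and Gclc (both 0.91), for Cntn5 Xpr1 and Vangl2 (both 0.93), for Cntn4 Ano4 (0.90) and Man2a1 (0.89), and for Cntn1 Mtmr6 (0.91) and Ank2 (0.87). Cntnap5b was most like Fam135b (0.89) and Zfp329 (0.79), Cntn6 like Cybrd1 (0.87) and Prmt3 (0.78), Cntn3 like Cog4 (0.83) and Plxna2 (0.81), and Cntnap5a like Klhl32 (0.82) and Aff1 (0.79). These values describe 16 points that share the division into CA1, CA3, DG and interneurons, and they are given without a test.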

How the data were processed

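RNA sequencing of hand-sorted neurons was measured in 48 libraries of 16 populations. The authors deposited raw read counts per Ensembl gene and a table of FPKM values per gene and library. Per the submitters' processing notes the tools were HTSeq, DESeq2, Cuffdiff 2.1.1 and TopHat2 2.0.6, and mm9 and NCBIM37 were the builds; their roles are not given there. Amplification of small amounts of RNA before library preparation, per the labels' protocols, can add spread to low counts. Symbols were joined by Ensembl identifier from an annotation of build GRCm38, which named 32897 of 37620 genes.

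Counts were tested with edgeR 4.0.16 in R 4.3.3 (quasi-likelihood F test, TMM scaling, filterByExpr), with Benjamini-Hochberg adjustment over all genes tested and calls at an adjusted p under 0.05. A model of 9 libraries served the CA1 long axis and another the ventral projection groups. A model of 18 libraries served the regions and the tests between long axes, and models of 6 libraries the remaining comparisons. The fit was tested on simulated counts for the CA1 long axis, the regions and PV against SST cells. The simulated spread was smaller than that estimated for the regions and for PV and SST cells, so the test does not cover spread of that size. The 92 ERCC sequences and 5 summary lines were left out, and reads outside genes were 20.4% to 46.7%. FPKM marked as failed was left out (115 genes). Correlations use log2(CPM + 1). Counting intervals (95%) and floors of 3 reads per library cover counting error only.

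All 10 members are described, partner genes are named by the 3 smallest p-values among those called in a comparison, and similar genes by the 2 highest correlations. The values of 1 partner gene are not reported here. The members, lists and tests were chosen with earlier results of these data known. Alternatives were DESeq2 1.42.0, RLE scaling, no filter on low counts, 1 model of all 48 libraries, a replicate block, omission of each library, and levels by total reads or FPKM.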

Additional observations from a re-analysis of the deposited data

Results flagged for a closer look

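The difference between dorsal and ventral cells was not the same in every region for several of the genes, by the interaction test of edgeR. Between CA1 and CA3 the difference of the log2 fold changes was -2.33 for Cntn3 (SE 0.45, adjusted p = 0.00331), 2.97 for Cntn4 (SE 0.65, adjusted p = 0.00869), 5.16 for Cntnap4 (SE 1.06, adjusted p = 0.00695), 3.44 for Cntnap5a (SE 0.87, adjusted p = 0.0299) and -2.81 for Cntnap5b (SE 0.48, adjusted p = 0.00105). Between CA1 and DG it was 5.52 for Cntn4 (SE 0.74, adjusted p = 5.52e-05), 3.86 for Cntnap2 (SE 0.47, adjusted p = 1.79e-05) and 6.03 for Cntnap5c (SE 1.08, adjusted p = 0.00111). These tests used the same CA1 libraries. The CA1 side of the Cntnap4 term rested on 62 reads in dorsal and 5 in ventral CA1. The Cntnap5a call was kept in 4 of 12 omissions of 1 library. It was lost without the filter on low counts (adjusted p = 0.163) and with a replicate block (0.0707). Between CA1 and CA3, the model of all 48 libraries did not call Cntnap4 (adjusted p = 0.223), Cntn3 (0.0975) or Cntnap5b (0.0587).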

How the results depend on the processing

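Of 71 pairs of a member and a comparison called by edgeR, 71 were called by DESeq2, 70 with RLE scaling, 68 without the filter on low counts and 47 in 1 model of all 48 libraries, and 56 were called under every omission of 1 library. Of the 71 pairs, 39 were called under every alternative that gave an adjusted p. None changed direction. With all 48 libraries in the model, the members called numbered 1 rather than 5 for dorsal against ventral CA1, 0 rather than 1 for dorsal against intermediate, 0 rather than 3 for intermediate against ventral, 1 rather than 0 for proximal against distal, 0 rather than 1 for superficial against deep, 5 rather than 0 for amygdala- against accumbens-projecting, 2 rather than 1 for accumbens-projecting against ventral, 4 rather than 7 in CA3, 2 rather than 5 for the CA1 and CA3 axes, 2 rather than 3 for PV against SST and 4 rather than 7 for PV against dorsal CA1. Without the filter they were 3 for dorsal against intermediate, 1 for proximal against distal, 3 for amygdala against accumbens and 2 for accumbens against ventral, and 4 rather than 5 for CA1 against CA3. RLE scaling with the filter gave 0 rather than 1 for accumbens against ventral. DESeq2 called 1 for proximal against distal, 3 for superficial against deep, 3 for amygdala against accumbens, 2 for accumbens against ventral, 1 for postsubiculum against dorsal and 5 for PV against SST. Omitting single libraries gave 3 to 5 for dorsal against ventral CA1, 1 to 3 for dorsal against intermediate, 0 to 1 for each of amygdala against accumbens, accumbens against ventral and postsubiculum against dorsal, 4 to 6 in CA3, 4 to 5 for the CA1 and CA3 axes, 2 to 3 for PV against SST and 4 to 8 for PV against dorsal CA1. The cause of these changes was not tested. The population with the highest mean was kept for 9 of 10 genes by total reads and for 7 by FPKM.

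Over all genes, counts of calls moved by more than 1.5 times in the model of all 48 libraries for dorsal against ventral CA1 (1837 to 665), dorsal against intermediate (599 to 101), intermediate against ventral (611 to 80), superficial against deep (311 to 65), amygdala against accumbens (3 to 354), amygdala against ventral (309 to 926), accumbens against ventral (265 to 915), postsubiculum (1370 to 765), CA3 (773 to 438), DG (3010 to 1883), the CA1 axis against that of CA3 (547 to 296) or DG (1510 to 792) and PV against SST (478 to 1120). DESeq2 called 965, 1003, 752 (edgeR 135 for proximal against distal), 921, 379, 930, 909, 2707, 1173, 884, 2512 and 1452 for dorsal against intermediate, intermediate against ventral, proximal against distal, superficial against deep, the 3 ventral projection comparisons in that order, postsubiculum, CA3, the 2 axis tests and PV against SST. Without the filter the counts were 301 for proximal against distal, 511 for superficial against deep, 180, 662 and 543 for the projection comparisons and 864 for PV against SST. Omission of single libraries gave 315 to 627 for dorsal against intermediate, 399 to 539 for intermediate against ventral, 16 to 94 for proximal against distal, 85 to 280 for superficial against deep, 0 to 11, 100 to 243 and 64 to 286 for the projection comparisons, 498 to 1329 for postsubiculum, 436 to 659 in CA3, 2002 to 3419 in DG, 230 to 683 for PV against SST and 2580 to 6221 for SST against dorsal CA1 (4067 with all libraries).

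With the replicate number as a block, the members called numbered 6 for dorsal against ventral CA1, 6 in CA3 (Cntn5 lost, adjusted p = 0.107), 4 for the CA1 and CA3 axes (Cntnap5a lost, adjusted p = 0.0707) and 9 for PV against dorsal CA1, and as many as without it elsewhere. The block brought the all-gene count for amygdala against accumbens from 3 to 1. Same-numbered libraries deviated together by more than 0.1 in 3 of 78 correlations (-0.0865 to 0.161, median -0.00518). The highest were 0.161 for the third and 0.126 for the first libraries of dorsal and ventral CA3. Such correlations cannot show whether same-numbered libraries share mice or a batch, so no conclusion on their origin is drawn.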
